A study of Mus musculus with 9 samples.

Results

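The change in chromatin accessibility between day 4 and day 5 of differentiation was examined in control cells that carried a non-silencing shRNA, called Nons below. Accessibility was measured by NOMe-seq, and the members are the genomic windows with a value in both the Nons day 4 and the Nons day 5 library on chromosomes 1 to 19 and X. There were 832713 such windows out of 833044 on these chromosomes, and 31261 of them were promoter windows, which hold the annotated 5′ end of a protein-coding or lncRNA gene. The cells were female FVB/CAST F1 mouse embryonic stem cells (mESCs), which were expanded in 2i, weaned into DME HiHi medium to differentiate, transduced with shRNA on day 2 and put under puromycin selection from day 3. The series also holds an untreated day 0 library, Nons libraries of days 6 and 7, and libraries of days 4 to 7 from cells with an shRNA against Smarcc1, whose product is part of the core of the nucleosome-remodelling complex BAF. Each condition and day is 1 library of a pool of selected cells, so no difference was tested and no p-value is given, and rose and fell state only which of 2 values was higher. The SD over the 19 autosomes, given with some values, describes how evenly a measure was distributed within the libraries and carries no information on the variation between cultures.

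In NOMe-seq, a GpC methyltransferase is added to fixed nuclei, where it reaches the cytosine of GC dinucleotides only where DNA is free of nucleosomes and other tightly bound protein. After bisulfite conversion, the percentage of GpC cytosines read as methylated reports how open a region was. Promoters of active genes, and CpG-rich promoters in particular, usually hold a nucleosome-depleted region just upstream of the transcription start, whereas most of the genome is wrapped in nucleosomes. A change in enzyme activity or fixation between preparations moves the level of a whole library, and such a change cannot be told apart here from a change of all chromatin, because day and preparation coincide.

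Of the 9 libraries, Nons day 5 had the highest promoter median. Over autosomal promoter windows this median was 13.8% before differentiation, rose from 17.4% to 27.5% between days 4 and 5 of the Nons arm, and was 13.0% and 8.09% on the following days. The Smarcc1 knockdown arm had medians of 13.7%, 24.2%, 14.7% and 8.82% on days 4 to 7. The rise at day 5 was therefore seen in both arms, and both arms were lower again at day 6. The 4 mitochondrial windows, whose DNA carries no nucleosomes, moved the other way, with a mean of 86.8% at day 4 and 81.7% at day 5. The number of reads behind a window was not known, so no counting error could be given.

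What the enzyme can read in a promoter depends on its letters. The stretches below are the 250 bases upstream of the RefSeq transcription start (GRCm38.p6), written 5′ to 3′ on the strand of the gene. Capitals mark the GC dinucleotides that can report accessibility, those not set in a CG context on both strands. They are shown because they carry the contrasts described below. Rab28 was among the 10 largest rises, Hexim1 had the largest fall of a 3-window mean, and Hist1h1c and Hist1h3b had the largest fall and rise of the histone genes.
Rab28 (chr5:41708180-41708429, minus strand): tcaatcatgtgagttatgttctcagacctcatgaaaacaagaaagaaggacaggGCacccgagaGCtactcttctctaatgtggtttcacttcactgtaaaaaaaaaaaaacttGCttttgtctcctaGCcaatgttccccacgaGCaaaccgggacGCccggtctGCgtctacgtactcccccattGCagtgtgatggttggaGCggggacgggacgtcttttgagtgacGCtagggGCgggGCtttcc
Hexim1 (chr11:103116075-103116324, plus strand): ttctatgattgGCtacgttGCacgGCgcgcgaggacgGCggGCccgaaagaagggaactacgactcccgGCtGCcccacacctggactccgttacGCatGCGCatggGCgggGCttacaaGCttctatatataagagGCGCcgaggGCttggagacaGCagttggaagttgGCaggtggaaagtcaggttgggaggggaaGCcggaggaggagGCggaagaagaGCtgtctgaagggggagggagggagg
Hist1h1c (chr13:23738557-23738806, plus strand): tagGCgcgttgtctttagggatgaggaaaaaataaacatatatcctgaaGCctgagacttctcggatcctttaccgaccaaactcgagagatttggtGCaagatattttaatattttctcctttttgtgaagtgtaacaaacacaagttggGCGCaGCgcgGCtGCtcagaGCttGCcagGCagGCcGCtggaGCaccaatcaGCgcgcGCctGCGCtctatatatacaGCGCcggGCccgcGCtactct
Hist1h3b (chr13:23752095-23752344, plus strand): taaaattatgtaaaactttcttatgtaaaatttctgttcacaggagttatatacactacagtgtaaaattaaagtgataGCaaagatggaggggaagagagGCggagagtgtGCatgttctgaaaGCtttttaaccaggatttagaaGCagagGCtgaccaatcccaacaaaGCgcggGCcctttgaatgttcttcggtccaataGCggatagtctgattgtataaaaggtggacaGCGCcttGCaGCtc
Rab28 encodes a small GTPase and held 12 such dinucleotides, against a median of 19 over 14041 matched protein-coding promoters. Hexim1 encodes an inhibitor of the elongation factor P-TEFb and held 21. Hist1h1c, a linker histone gene, held 22, and Hist1h3b, a core histone H3 gene, held 13. Rab28 went from 16.4% to 58.5% in its promoter window and Hexim1 from 40.5% to 35.4%. The promoter windows of Rab28 and Hexim1 contained 250 and 213 of these bases, that of Hist1h3b contained 240 and that of Hist1h1c, which lies mostly downstream, contained 57.

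Accessibility rose at day 5 over nearly the whole genome and to a similar degree on every chromosome. Across 789559 autosomal windows the median level was 13.95% on day 4 and 21.2% on day 5. The median change within windows was 7.08 percentage points (SD over 19 autosomes 0.0811), with a range of 6.94 points on chromosome 12 to 7.30 points on chromosome 2. As a ratio of medians the rise was 1.52-fold, with a range of 1.505 to 1.53 over the autosomes. Of the autosomal windows, 77.9% rose and 22.0% fell. Single windows scattered widely around the common rise, with an SD of 9.86 points and a 10th to 90th percentile range of -4.54 to 20.2 points. In the knockdown arm the autosomal median was 11.1% at day 4 and 20.2% at day 5, a median change of 8.84 points and a 1.82-fold ratio.

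In Nons the rise was closer to a constant fold than to a constant number of points. Windows were ranked by their mean level in the 5 libraries outside the Nons and knockdown day 4 and day 5 pairs, and split into 10 equal groups. In windows outside promoters, the lowest group went from 12.9% to 19.6% and the highest from 16.1% to 24.5%. Their ratios were 1.52 and 1.53, although the median change lay at -0.546 points from the library-wide rise in the lowest group and 0.944 points above it in the highest. Among promoter windows, the lowest group went from 13.3% to 20.5%, a ratio of 1.55. The group next to the top went from 24.1% to 36.7%, a ratio of 1.52, and the highest from 28.5% to 41.1%, a ratio of 1.45. The most open promoters thus gained 5.05 points more than the library-wide rise while their fold was the smallest of the 10 promoter groups. In the knockdown arm the fold was less even. Its log2 ratio relative to the library was 0.066 in the lowest promoter group and -0.21 in the highest. The median change there lay at -0.311 and 3.55 points from that arm's library-wide rise.

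**Figure D1:**
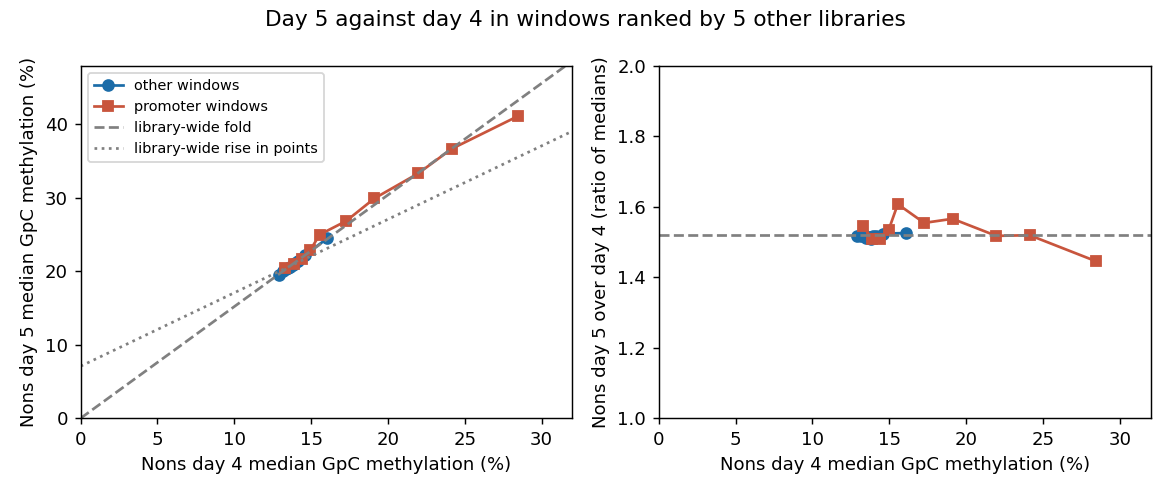
Median GpC methylation (%) at Nons day 5 (left) and the day 5 over day 4 ratio of medians (right) against the day 4 median (%), for 10 equal groups of windows ranked by 5 other libraries. Promoter windows (squares) and other windows (circles) follow the dashed line of the library-wide 1.52-fold rise rather than the dotted line of a constant 7.08 points, and the most open promoter group lies below it at 1.45.

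By medians over all windows, with the alleles merged, the X chromosome opened as the autosomes did. Its median was 14.05% at day 4 and 21.3% at day 5 over 43154 windows, a change of 7.11 points and a ratio of 1.52. The difference from the autosomes was 0.0266 points, within the SD over autosomes of 0.0811, and -0.0017 on the log2 ratio scale. All X values here merge the FVB and the CAST chromosome. The paper split its reads by allele and reported that promoters on these X chromosomes opened with different timing. Merged values cannot show such a difference between alleles. Promoter windows on the X went from 17.7% to 27.9% (1049 windows), and those on the autosomes from 17.4% to 27.5% (30212 windows). These are medians, and by means they went from 19.7% to 28.5% and from 19.1% to 28.6%. The log2 ratio of promoters minus other windows by means was -0.070 on the X, against -0.050 to 0.021 on the autosomes. With the knockdown, the X changed by 9.07 points against 8.84 for the autosomes, which ranged from 8.60 to 8.96.

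Promoters gained more points than the rest of the genome, and whether they gained more in proportion depended on the measure. The median change of autosomal promoter windows was 8.95 points and that of other autosomal windows 7.02 points, an excess of 1.93 points (SD over autosomes 0.527) that was above 0 on 19 of 19 autosomes. On the log2 scale the ratio of medians was 0.057 higher in promoters (SD 0.024), above 0 on 19 of 19 autosomes. With means in place of medians it was 0.018 lower in promoters, at a value of -0.018 (SD 0.019) that was above 0 on 4 of 19. The knockdown arm had an excess of 1.12 points, and its log2 ratio was -0.027 by medians and -0.085 by means, with 0 of 19 autosomes above 0 by either. The promoter to other ratio of medians was 1.25 at Nons day 4 and 1.31 at Nons day 5, the highest of the 9 libraries, which otherwise lay between 1.21 and 1.27. By means it was 1.32 at day 4 and 1.31 at day 5, and Nons day 5 was not the highest. The libraries then ran from 1.24 at knockdown day 5 to 1.39 at Nons day 7. Only knockdown day 5 and day 0, at 1.30, lay below Nons day 5. Quantile normalization of the 2 libraries, which compares ranks and removes the library-wide rise, turned the excess to -0.251 points, and the differences between promoter classes given below turned with it, to -0.639 points for CpG-rich minus CpG-poor and -0.222 for protein-coding minus lncRNA.

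Around protein-coding starts the whole profile was lifted by a similar factor. Mean GpC methylation was 14.6% at day 4 and 22.3% at day 5 in windows centred 10 to 20 kb upstream of a start. It was 22.3% and 32.8% in windows centred within 0.5 kb of the start, where the mean change was 10.4 points against 7.69 points upstream. On the log2 ratio scale the rise was 0.61 upstream, 0.55 within 0.5 kb of the start and 0.60 in windows 10 to 20 kb downstream. The knockdown arm showed a deeper dip at the start on this scale, from 0.81 upstream to 0.68. These are ratios of means, and by medians the Nons arm had no such dip. Relative to the library, its log2 ratio of medians was 0.0085 upstream and 0.041 within 0.5 kb of the start. In the knockdown arm the same values were -0.0092 and -0.096. Exonic, intronic and intergenic windows outside promoters changed by 6.93, 7.09 and 7.02 points.

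**Figure D2:**
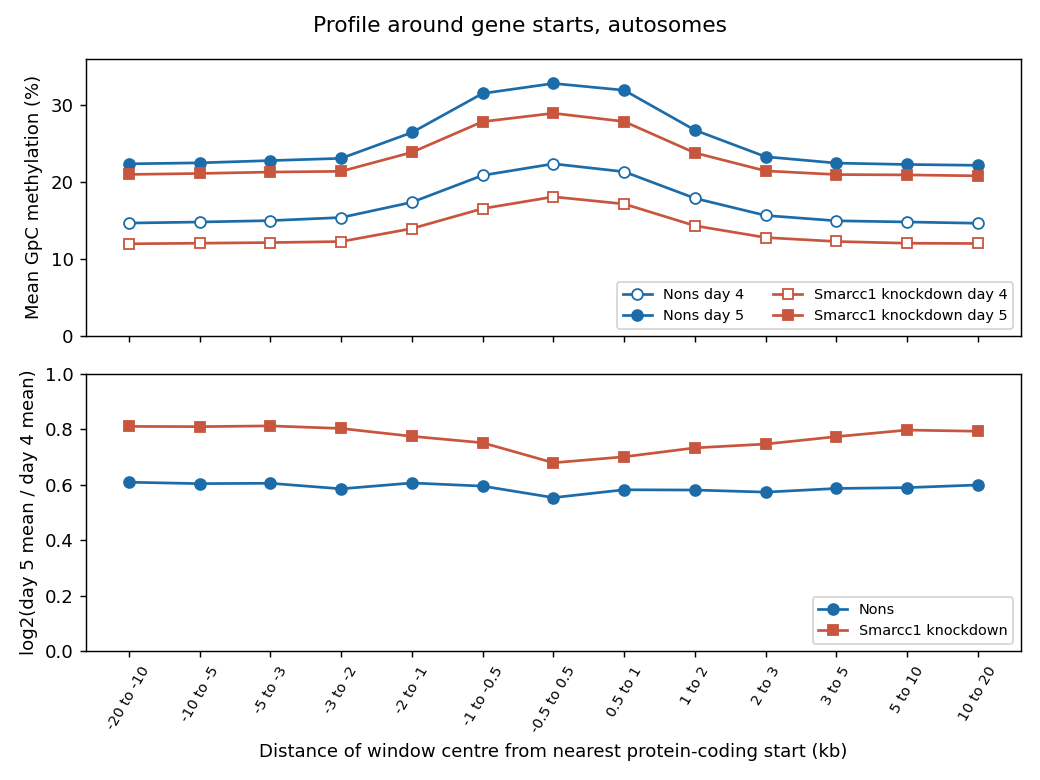
Mean GpC methylation (%, top) and log2 of the day 5 over day 4 mean (bottom) by distance of the window centre from the nearest protein-coding start (kb), autosomes, 1 library per point. The Nons day 5 curve (filled circles) peaks at 32.8% at the start against 22.3% at day 4 (open circles), while the Nons log2 ratio stays between 0.55 and 0.61.

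CpG content divided the promoters by points and hardly by ratio. CpG-rich promoters, typical of housekeeping and developmental genes, went from 25.3% to 38.6% (4944 windows), 5.30 points more than the library-wide rise. The intermediate class went from 23.0% to 35.1% (6132 windows), 4.57 points more. CpG-poor promoters, typical of tissue-restricted genes, went from 14.9% to 23.2% (9407 windows), 0.697 points more. On autosomes the CpG-rich class exceeded the CpG-poor class by 4.59 points (SD over autosomes 1.61, above 0 on 19 of 19), whereas on the log2 ratio scale the difference was -0.032 (SD 0.093, above 0 on 4 of 19). Relative to all promoters, the CpG-rich and CpG-poor classes stood at 3.44 and -1.16 points in Nons and at 2.45 and -0.599 points in the knockdown arm.

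Short promoter motifs gave the same picture. They were searched on both strands in the 250 bases upstream of the 14041 matched protein-coding starts, out of 21654. GGGCGG, the core of Sp1 sites, was in 47.4% of these promoters. Windows with it went from 23.5% to 36.4% and windows without it from 17.3% to 27.3%, that is 5.08 and 1.55 points more than the library-wide rise, with relative log2 ratios of 0.027 and 0.052. CCGGAAG, an ETS family core, was in 10.3%. Windows with it gained 4.50 points over the library-wide rise and those without it 3.05 points. Their relative log2 ratios of medians had the opposite order, at 0.010 and 0.057. TATAAA, the TATA box, was in 10.7%, and windows with it went from 16.4% to 26.0%. They gained 1.10 points over the library-wide rise, less than the 3.44 points of windows without it. By ratio they did not gain less, with relative log2 ratios of medians of 0.066 with the motif and 0.050 without it. CCAAT was in 37.0% and made little difference, with 3.24 points in windows that held it and 3.12 points in those that did not. CACGTG, an E-box, was in 7.33% of promoters and ATGCAAA, part of the octamer read by POU factors, in 3.60%. Windows with CACGTG gained 4.10 points over the library-wide rise and those without it 3.12. For ATGCAAA the values were 2.39 points with it and 3.21 without it. Relative log2 ratios of medians had the opposite order. They were 0.043 with the E-box and 0.061 without it, and 0.067 with the octamer part and 0.055 without it. By means the order was again that of the points, at -0.020 and -0.025 for the E-box and -0.045 and -0.024 for the octamer part. GGGCGG can overlap a marked GC dinucleotide, and a match of letters does not show that a factor was bound.

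Gene biotypes also differed in their gain in points, and their order by ratio depended on the measure. Protein-coding promoters went from 19.3% to 30.6% (20250 windows), 2.79 points over the library-wide rise. Promoter windows that held a lncRNA start and no protein-coding start went from 15.0% to 22.8% (11011 windows), 0.482 points over it. On autosomes the difference between these classes was 2.38 points (SD over autosomes 0.720, above 0 on 19 of 19). Relative to the library, the log2 ratios of the protein-coding and lncRNA classes were 0.064 and 0.0048 by medians, and -0.020 and -0.016 by means. Starts of lncRNAs annotated as sharing a bidirectional promoter went from 21.8% to 35.1% (187 windows), 2.55 points over the library-wide rise. Their relative log2 ratio was 0.082 by medians and -0.082 by means. Processed and unprocessed pseudogene starts rose less than the library as a whole, with median changes at -0.386 and -0.517 points from its rise. The snoRNA starts, which mostly lie inside introns of host genes, were at -0.952 points (1275 windows).

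A promoter window was called when its change lay 10 points or more from the library-wide rise. Of all promoter windows, 23.2% were called above and 12% below, against 16% and 13.6% of all windows. The share that rose was 80.9% of promoter windows and 77.9% of all windows. These calls count large differences between 2 single libraries and are not tests. Of the CpG-rich promoters 35.4% were called above and 10.4% below, and of the CpG-poor promoters 18.7% and 12.6%.

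Gene lists chosen by function or family were read against the promoter median of 8.94 points. Of 33 lists with 10 or more windows, 13 lay 2 points or more above it and 5 lay 2 points or more below it. Of the 13, 7 were on the same side in the knockdown arm, and of the 5 below, 4 were. On the ratio scale 9 lists were above all promoters and 24 below, so a list that gained more points did not as a rule gain more in proportion. Proteasome subunits, Polycomb subunits, respiratory chain genes and Hox genes were among those above in points and below in ratio of medians. By ratios of means, Hox genes turned to 0.080 against -0.019 for all promoters, both relative to the library. After quantile normalization, ribosomal protein, proteasome, Sox, primed epiblast, BAF and Polycomb genes lay below the promoter median, at -3.88 to -1.33 points, and olfactory receptor genes 0.0859 points above it.

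The replication-dependent histone genes rose least in proportion. These genes lie in clusters, are transcribed in S phase and have compact promoters. Their 67 genes fall in 50 windows, since neighbours often share 1. At day 4 the lowest window was at 15.6%, the median at 35.5% and the highest at 65.8%, and at day 5 the same values were 9.46%, 40.8% and 70.7%. The ranges overlapped almost fully, and 34 of 50 windows rose while 16 fell. The median change of 6.16 points was 2.78 points below that of all promoters, and their log2 ratio was 0.40 below the library-wide ratio, at -0.40. Of the 50 windows, 16.0% were called above and 16.0% below, against 23.2% and 12% of all promoters. Their median was 2.04 times that of all promoters at Nons day 4 and 1.48 times at day 5, and 1.83 and 1.69 times at days 7 and 6. In the knockdown arm this ratio also fell, from 1.90 times at day 4 to 1.59 times at day 5, although its median change in points was 1.497 above all promoters.

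Single histone windows moved in opposite directions. The window of Hist1h1c went from 65.8% to 39.9%. That shared by Hist1h3b and Hist1h2ab went from 30.6% to 70.7%. Hist1h3e, another H3 gene, went from 63.1% to 40.6%, and Hist1h1e, another linker histone gene, from 27.0% to 58.8%. In the knockdown arm Hist1h1c went the other way, from 42.9% to 69.1%, and Hist1h3b went from 28.1% to 33.9%. Of 61 histone promoters with a matched sequence, 50 held CCAAT, or 82.0% against 37.0% of all matched promoters, and 28 held TATAAA, or 45.9% against 10.7%. Both motifs can be read in the stretch of Hist1h3b printed above.

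The Fgf genes, which encode secreted growth factors and their intracellular relatives, were the list with the highest ratio among the 33. Their 22 windows spanned 6.15% to 31.8% at day 4 with a median of 15.4%, and 15.4% to 55.1% at day 5 with a median of 29.9%. The groups overlapped, and 19 of 22 windows rose. Of the 22, 31.8% were called above, against 23.2% of all promoters, and 0 were called below. The median change was 4.29 points above that of all promoters and the log2 ratio was 0.30 above it. Fgf14, whose product binds sodium channels, went from 10.2% to 55.1%, Fgf8, a ligand of gastrulation and patterning, from 8.62% to 47.1%, and Fgf13 on the X from 14.6% to 51.1%. Fgf23, a hormone of phosphate balance, went from 8.80% to 38.1%. The 3 that fell were Fgf15, from 31.8% to 29.4%, Fgf10, from 17.6% to 15.9%, and Fgf9, which fell by 1.94 points. The Fgf median stood at 0.884 times that of all promoters at Nons day 4 and 1.09 times at day 5, and was 1.22 and 1.13 times at days 6 and 7. With the knockdown it went from 16.4% to 28.6%, and its median change lay at -0.991 points from that of all promoters. Of the Fgf genes named here, Fgf13 and Fgf23 also rose steeply in the knockdown arm, from 6.56% to 42.7% and from 8.26% to 37.4%, while Fgf14 went from 21.2% to 25% and Fgf8 from 16.7% to 20.4%.

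Collagen genes, which encode extracellular matrix proteins, went from a median of 16.7% to 30.3% in 41 windows, of which 38 rose. They were 3.75 points above all promoters, with 34.1% called above against 23.2% and 2.44% called below against 12%. Their value in the knockdown arm was -3.04 points. Cytosolic ribosomal protein genes started from one of the higher levels, with a median of 27.0% at day 4 and 40.3% at day 5 (86 windows), 3.34 points above all promoters with a log2 ratio at -0.082 from theirs. With windows taken by their distance from the start, their value was -0.444 points. Respiratory chain genes went from 23.2% to 35.2% (93 windows), and 76 rose, or 81.7% against 80.9% of all promoters. Of these windows 35.5% were called above against 23.2%, and 9.68% below against 12%.

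Lists of developmental regulators did not move together. The 26 mesoderm regulators, among them T, Eomes and Mesp1, went from a median of 21.6% to 28.6%, with a median change at -3.40 points from that of all promoters. Within this list Eomes went from 10.2% to 39.1% and Foxc1 from 18.9% to 47.4%, while Snai2 went from 40.5% to 30.1%. The 13 trophectoderm and extraembryonic regulators went from 21.3% to 33.3% and each of the 13 windows rose, 5.16 points above all promoters. Pluripotency factors went from 24.1% to 34.4% (28 windows, 22 rising), primed epiblast genes from 22.8% to 36.5% (19 windows, 13 rising), and Polycomb subunits from 27.4% to 38.6% (30 windows, 24 rising). The 18 X inactivation regulators went from 28.9% to 36.8%, with 14 rising, and their log2 ratio lay at -0.31 from that of all promoters. DNA methylation genes went from 18.5% to 35.4% (14 windows, 11 rising) and endoderm regulators from 17.5% to 33.8% (17 windows, 14 rising), and both lists were above all promoters in log2 ratio by medians, at 0.27 and 0.29. By means they stood at 0.0014 and -0.0056 from the library-wide ratio, so in lists of this size the ratio depended on the measure. Lists of genes typical of other tissues differed among themselves. Defensin genes went from 12.7% to 22.0% (60 windows), cytochrome P450 genes from 14.5% to 24.2% (94 windows) and keratin genes from 14.1% to 21.3% (109 windows), with median changes at 1.90, 2.41 and -1.41 points from the library-wide rise. Of the receptor genes of the nose, 1077 olfactory receptor windows went from 13.7% to 20.9% and 317 vomeronasal receptor windows from 13.4% to 20.3%. Their median changes were at -0.322 and -0.454 points from the library-wide rise.

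**Figure D3:**
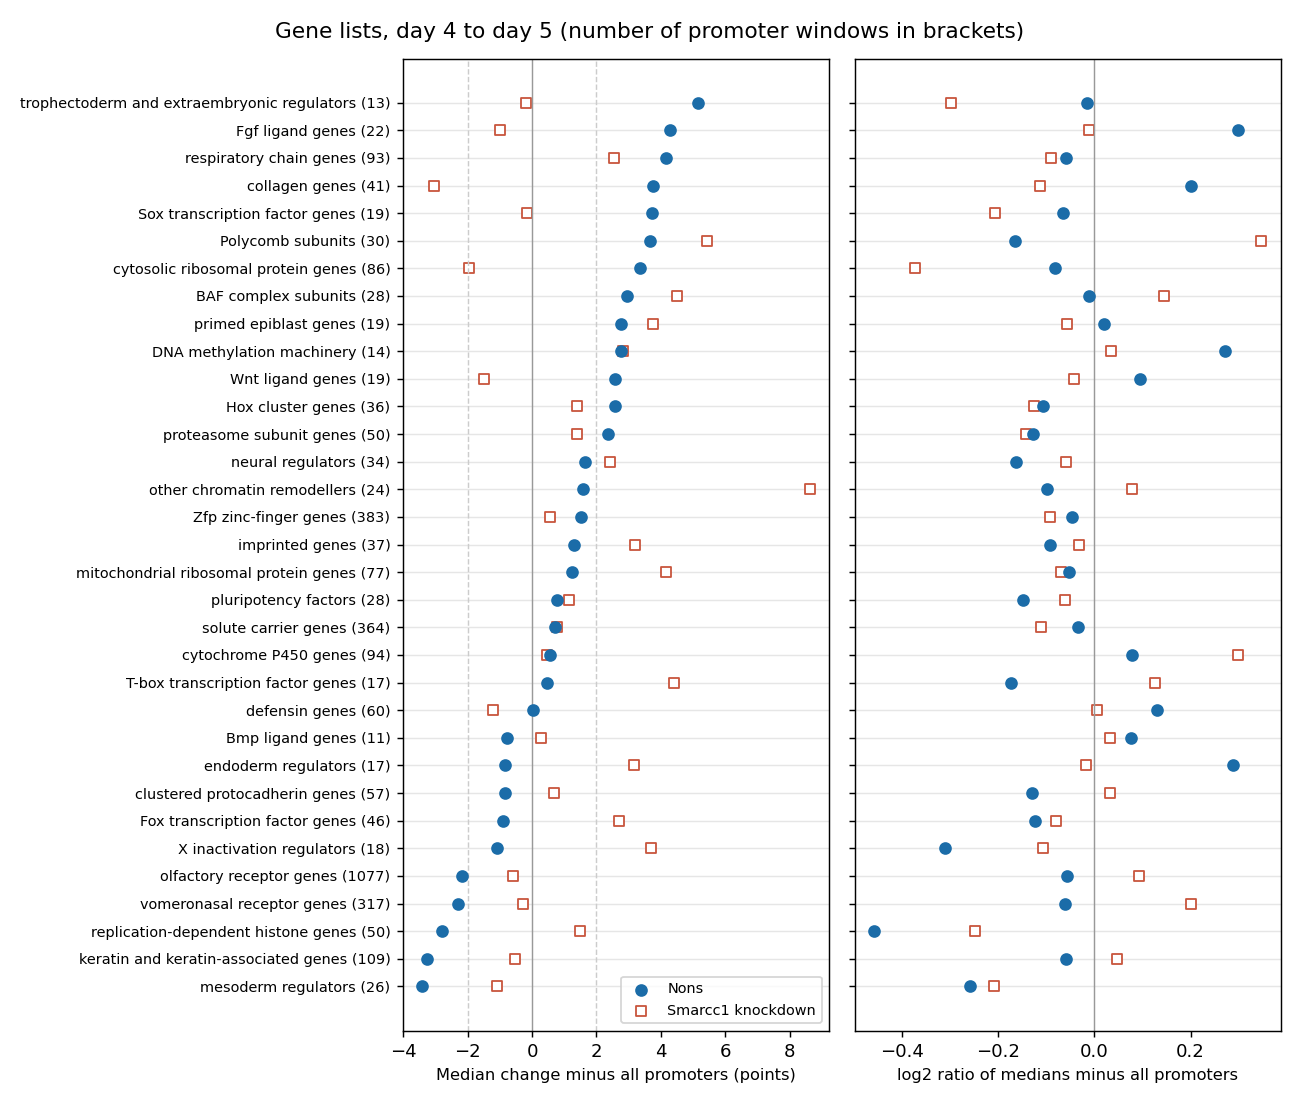
Median change in points (left) and log2 ratio of medians (right) of 33 gene lists, each minus the value of all promoter windows, for Nons (filled circles) and Smarcc1 knockdown (open squares), with the number of windows per list. Nons values run from -3.40 points for mesoderm regulators to 5.16 for trophectoderm regulators, and on the right histone genes are lowest and Fgf genes highest, while the knockdown values often lie on the other side of 0. The values are on the deposited scale, and 7 of the called lists change side under quantile normalization.

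**Figure D4:**
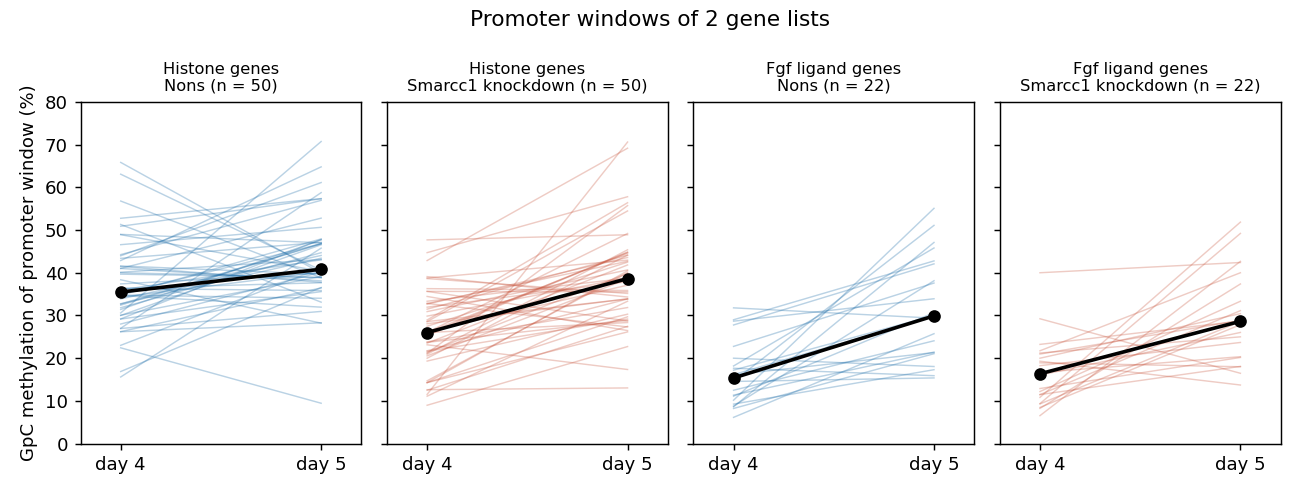
GpC methylation (%) at day 4 and day 5 of each promoter window (thin lines) and the list median (thick line) for histone genes (50 windows) and Fgf ligand genes (22 windows) in both arms. The Nons histone median rises from 35.5% to 40.8% with lines crossing in both directions, and the Nons Fgf median from 15.4% to 29.9% with 19 of 22 lines rising.

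A panel of 31 X inactivation, pluripotency, lineage, BAF and housekeeping genes was followed gene by gene. Of their promoter windows 26 rose and 20 rose by more than the library-wide rise, 10 were called above and 3 below. Over all promoter windows 80.9% rose, 23.2% were called above and 12% below. When each window was averaged with its nearest neighbour on either side, 16 of 31 lay above the library-wide rise. That rise was 7.08 points. The median change was 8.94 points over all promoter windows and 8.62 points over the 3-window means of protein-coding promoters. Most promoters therefore lay above the library-wide rise by either measure, and the panel counts do not set these genes apart. At the X inactivation centre, the window of Xist, the RNA that coats the inactive X, went from 23.9% to 37.7%, but its 3-window mean went from 29.6% to 28.5%. Tsix, the antisense repressor of Xist, went from 11.3% to 37.2%. Jpx, an lncRNA activator of Xist, went from 25.8% to 48.3%. Rlim, which encodes an E3 ligase that activates Xist, went from 36.8% to 48.8%. Ftx, another lncRNA of the region, was level at 28.0% and 27.6%. Neighbouring genes of 1 region therefore differed in their change.

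Among X-linked genes outside that region, Kdm6a, a histone demethylase gene, went from 28.0% to 45.3% and Hprt, of purine salvage, from 23.5% to 41.5%. The 3-window mean of Hprt went from 16.1% to 22.8%, a change of 6.77 points that lay below the library-wide rise. Atrx, a chromatin remodeller gene, went from 46.2% to 29.1% and Pgk1, of glycolysis, from 35.9% to 31.9%. The Atrx window was at 25.0% at day 0 and 40.0% at Nons day 6, and in the knockdown arm at 23.7%, 23.9% and 36.1% on days 4, 5 and 6. The measures of Pgk1 differed in direction, since its 3-window mean rose from 26.0% to 38.3%, whereas that of Atrx fell from 32.3% to 30.1%. Of the pluripotency factors Klf4 went from 23.7% to 62.1%, Zfp42 from 20.7% to 52.9%, Nanog from 21.1% to 33.3% and Sox2 from 34.9% to 47.6%. Pou5f1 was level at 44.9% and 46.1%, and Esrrb went from 18.2% to 11.1%, with a 3-window mean that rose from 17.4% to 23.6%. These genes maintain pluripotency, and their windows showed no common direction relative to the library-wide rise.

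Of the primed epiblast genes, Fgf5 went from 22.8% to 37.6%, Dnmt3b from 29.1% to 36.4% and Otx2 from 20.1% to 26.2%. Among the early lineage genes, Sox1 of the neural lineage went from 16.7% to 45.7% and T, the mesoderm factor brachyury, from 25.3% to 38.1%. Sox17 of the endoderm went from 26.5% to 27.6% and Pax6 from 27.7% to 26.5%. The 3-window means of both rose, from 17.6% to 31.9% in Sox17 and from 27.0% to 32.15% in Pax6. Of the BAF genes, Smarca4, which encodes the ATPase, went from 16.9% to 49.4%, Smarcc1 from 26.7% to 39.2% and Arid1a from 26.4% to 39.5%. Among housekeeping genes Gapdh went from 23.3% to 47.1%, Eef1a1 from 16.4% to 36.5% and Actb from 27.3% to 31.3%. In single windows, promoters that the cells use throughout moved by as little as 4.02 points in Actb or as much as 23.8 points in Gapdh. The SD over all autosomal windows was 9.86 points. By 3-window means the changes lay closer together, at 5.82 points in Actb, 8.44 in Eef1a1 and 10.9 in Gapdh.

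The largest changes of single promoters were taken from the 3-window means of 18637 protein-coding promoters. These means rose in 93.0% of promoters and fell in 1303, with a median change of 8.62 points and an SD of 6.19. Among windows of ordinary length the largest rise was that of Snx2, a sorting nexin gene, from 13.3% to 45.6%. Pde4b, a cAMP phosphodiesterase gene, went from 13.7% to 45.8%, Rab28, printed above, from 14.3% to 45.9%, S100a11, a calcium binding protein gene, from 13.9% to 45.3%, and Nr1d2, a repressor gene of the circadian clock, from 15.1% to 45.4%. Fgf14, Psd and Ephx4 also rose by more than 30 points. Ccl27b and Fam205a2 rose by 38.8 and 38.7 points, but their windows were 110353 and 98612 bases long, adjacent on chromosome 4, and their means share windows.

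Falls were smaller in size. Hexim1, printed above, went from 47.5% to 31.2%, and fell by 16.2 points. Crip3 went from 29.7% to 16.7%, Gtf2i, which encodes a general transcription factor, from 33.4% to 20.6%, Chpf2 from 38.8% to 26.4% and Sema4d, a semaphorin gene, from 28.6% to 17.2%. Tcl1, a gene active in mESCs, went from 26.3% to 15.3%. Ramp3, Trim43c, Vmn2r45 and Nsun3 fell by 10.8 to 11.4 points. By ratio, Ankrd1, Rhox2f, Ctsll3, Defb8 and Fam205a2 had the highest values, with relative log2 ratios of 1.58 to 2.40, and Vmn1r90, Vmn2r45, Gpr31b, Ankef1 and Adgre4 the lowest, -1.78 to -1.60. These genes were chosen by their Nons values. Of the 10 with the largest falls, 10 rose in the knockdown arm, by 2.38 to 17.3 points, and of the 10 with the largest rises, 7 rose there while 3 of each set exceeded its library-wide rise. Of all 18637 promoters, 17813 rose in the knockdown arm. Their median change there was 9.73 points against the library-wide rise of 8.84 points in that arm, so most of them exceeded it. Over all promoters the 3-window changes of the arms had a Pearson correlation of 0.035 (n = 18637 promoters that share libraries within each arm).

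Every 1 Mb bin was more open at day 5. Of 2581 bins, 2548 held 100 windows or more, and their mean change ran from 4.71 to 9.62 points around a mean of 7.51. The SD of the bin values was 0.676 points, against a median standard error over the windows of a bin of 0.543, so much of the spread between bins was of the size that the scatter of windows gives. Means of odd and even windows within a bin had a correlation of 0.168. Only 2 bins (0.0785%) lay 2 points or more above the mean of bins and 11 (0.432%) 2 points or more below. On the log2 ratio scale bins ran from -0.19 to 0.15 around the mean ratio, and the centred and ratio values had a correlation of 0.872 over bins.

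Several of the bins that rose least hold clusters of duplicated genes. The highest bin was chromosome 19, 45000001 to 46000000, which holds Fgf8, Tlx1, Lbx1 and Btrc, and went from 15.7% to 25.4%. The next was chromosome 4, 48000001 to 49000000, with Nr4a3 and Tmeff1, from 14.05% to 23.6%. The lowest was chromosome 12, 23000001 to 24000000, with 1 protein-coding start, from 13.9% to 18.6%. It was followed by 2 bins of chromosome 7, 42000001 to 43000000 with vomeronasal receptor genes of the Vmn2r family and zinc-finger genes, which rose by 4.98 points, and 13000001 to 14000000 with Vmn1r and Sult2a genes, from 14.9% to 20.1%. The bin of chromosome 9, 19000001 to 20000000, with a cluster of olfactory receptors, went from 14.2% to 19.7%, and that of chromosome 8, 20000001 to 21000000, with defensin genes, from 14.5% to 19.9%. On the ratio scale such clusters stood at both ends, since the bin of chromosome 6, 123000001 to 124000000, with Clec4 and Vmn2r genes, had the highest log2 ratio and went from 13.1% to 22.0%. Soft-masked repeats filled 34.6% to 74.1% of the windows of the 10 lowest bins and 24.0% to 40.2% of those of the 10 highest, and the part of repeats in the result was not tested. With the knockdown the 10 lowest bins were below their mean in 9 cases, with a median of -0.540 points, and the 10 highest above it in 8, with a median of 0.534. On the ratio scale 6 of 10 were on the same side in each set.

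Over all bins the arms shared little. The Pearson correlation of the Nons with the knockdown change was 0.058 over 2548 bins of 1 Mb, 0.014 over 832610 single windows and 0.075 over 266 bins of 10 Mb, and bins of 1 library share its depth and base composition. The relation to GC content ran in opposite directions. The Nons change rose with GC (correlation 0.197) and the knockdown change fell with it (-0.376). Among the 255 bins with the lowest GC, 36.8% on average, the Nons bins were at -0.218 points and the knockdown bins at 0.328 points from their own means. Among the 255 with the highest GC, 49.0% on average, they were at 0.221 and -0.422 points. Whether base composition of the libraries contributed to differences between bins was not tested.

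**Figure D5:**
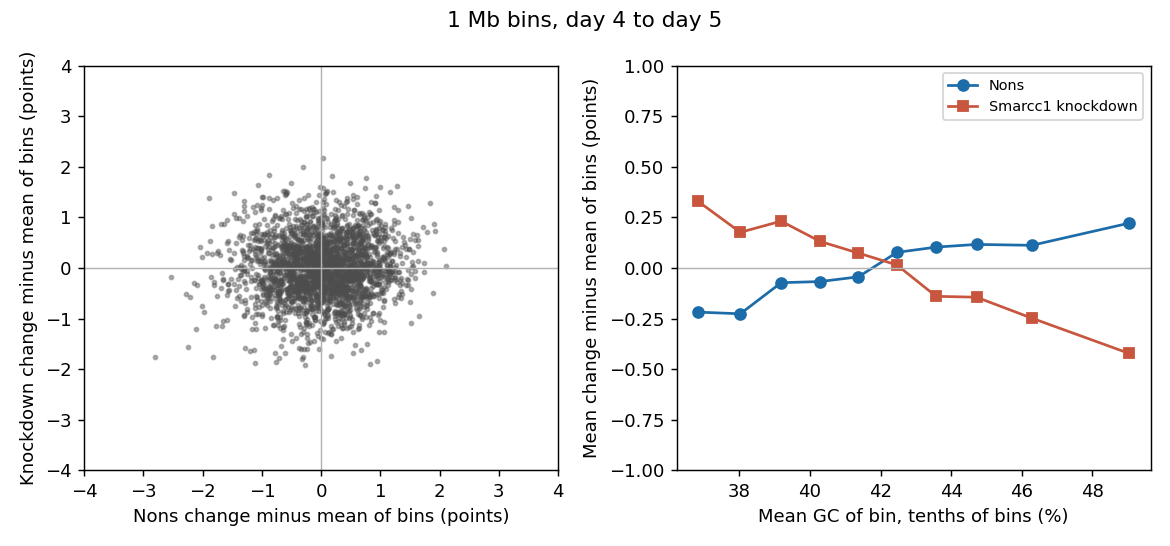
Change of each of 2548 bins of 1 Mb minus the mean of bins (points) in the knockdown against Nons (left), and the mean of both over 10 groups of bins by GC content (%, right). The cloud on the left has no slope that the eye can follow (correlation 0.058), and on the right Nons rises from -0.218 to 0.221 points with GC while the knockdown falls from 0.328 to -0.422.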

How the data were processed

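NOMe-seq libraries were made by the study from fixed nuclei with a GpC methyltransferase, bisulfite conversion and an Accel-NGS Methyl-Seq kit. Per the study's methods, the authors used trim_galore for trimming and Bismark for alignment to mm10, in which FVB and CAST SNPs had been masked. They extracted GpC calls with the NOMe-seq option of coverage2cytosine, and deposited the percent of GpC calls methylated in windows of 200 read positions, alleles merged. The percentages were used as deposited. Coverage per window is not in the table, so the depth and its error are unknown.

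Windows were annotated with GENCODE M21 and the GRCm38 sequence. A promoter window holds a gene's 5′ end. CpG-rich promoters had a GC share of at least 0.55 and CpG observed over expected of at least 0.75 in the 1 kb around the start, and CpG-poor promoters an observed over expected under 0.48. Changes were day 5 minus day 4, centred on the autosomal median change, and log2 ratios of medians. No test was possible with 1 library per group. Named genes were the panel, the 10 largest and 10 smallest 3-window changes of protein-coding promoters (numbered Gm and Rik genes left out), and the 5 highest and 5 lowest ratios with 5% or more at day 4. Named bins followed the same rule. Not every gene and bin that these rules chose is reported here. Members, lists and motifs were chosen with earlier results of these data known. Promoter sequences came from RefSeq (GRCm38.p6), matched by symbol or synonym within 500 bases of the start. The scripts, in Python 3.11.15 with pandas 2.3.3, were tested on simulated data. The alternatives were means, windows present in all 9 libraries, windows of 10 kb or less, windows at 0 or 100% left out, quantile normalization, an arcsine scale, centring by GC and length, promoters by distance, and other bins.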

Additional observations from a re-analysis of the deposited data

Results flagged for a closer look

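Results were listed here when they moved in opposite directions in the Nons and the Smarcc1 knockdown arm, or when they lay outside the windows compared. With 1 library per arm and day, none of these differences was tested.

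The 4 mitochondrial windows changed by -5.18 points in Nons, and each of them fell, as in the knockdown (-3.56 points). The 244 windows on the Y chromosome, in cells labelled female, changed by 8.23 points in Nons, from a mean of 13.8% to 22.1%.

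Among the gene lists that lay 2 points or more from the promoter median in Nons, those on its other side in the knockdown were the trophectoderm and extraembryonic regulators (5.16 points in Nons, -0.188 in the knockdown), Fgf ligand genes (4.29 and -0.991), collagen genes (3.75 and -3.04), Sox genes (3.71 and -0.159), cytosolic ribosomal protein genes (3.34 and -1.95), Wnt ligand genes (2.58 and -1.48) and replication-dependent histone genes (-2.78 and 1.497). The promoter excess on the log2 ratio scale was 0.057 in Nons and -0.027 in the knockdown, and the correlation of the bin change with GC was 0.197 and -0.376.

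By 3-window means, Xist changed by -1.14 points in Nons and 16.7 in the knockdown, Atrx by -2.20 and 5.79, and Zfp42 by 11.8 and -5.46. The other genes were chosen for extreme Nons values, so an opposite sign in the other arm has no weight of its own. Ccl27b (38.8 points in Nons), Fam205a2 (38.7) and S100a11 (31.4) fell in the knockdown. Hexim1 (-16.2 in Nons), Crip3 (-12.9), Gtf2i (-12.8), Chpf2 (-12.5), Sema4d (-11.4), Ramp3 (-11.4), Trim43c (-11.1), Tcl1 (-10.9), Vmn2r45 (-10.9), Nsun3 (-10.8), Ankef1 (-8.36), Vmn1r90 (-8.20), Gpr31b (-8.003) and Adgre4 (-6.62) rose in the knockdown.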

How the results depend on the processing

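The main results had 114 values under other settings. Of these, 84 moved by less than the SD over autosomes or, for counts, by less than 1.5 times. Another 23 moved further without a called value turning sign, and 7 turned sign from a value larger than that SD. Among single lists, genes and bins, 11 called values turned sign. Counting every value, however small, 12 of the main results and 35 of those of single lists, genes and bins had the other sign, 6 and 20 of them under quantile normalization. Quantile normalization removes the library-wide rise by construction (-0.0683 points in Nons, -0.0391 in the knockdown) and turned the promoter excess to -0.251 points, CpG-rich minus CpG-poor to -0.639, protein-coding minus lncRNA to -0.222 and X minus autosomes to -0.0743 points, and gave a promoter excess in log2 ratio of 0.028. It left 0 bins above and 1 below, and put ribosomal protein genes at -2.20, proteasome at -1.33, olfactory receptors at 0.0859, Sox genes at -3.41, primed epiblast genes at -3.88, BAF subunits at -1.36 and Polycomb subunits at -1.61 points from the promoter median. With means, the promoter excess in log2 ratio was -0.018, the rise 7.55 points (knockdown 9.06) and primed epiblast genes -1.96. On the arcsine scale (angle times 100) the promoter excess was 1.67, CpG-rich minus CpG-poor 3.48, protein-coding minus lncRNA 1.92 and the knockdown rise 12.6, with 10 lists, 0 bins above and 7 below. On the log odds scale, added after seeing the data, the 3 promoter differences were 0.0827, 0.0708 and 0.0973. Centred by GC and length, X minus autosomes was 0.164 points and 1 bin was above. Bins of 2 Mb gave 0 above and 1 below, bins of 500 kb 57 and 84, and 200 windows per bin 6 below. By distance from the start, ribosomal protein genes were at -0.444 and Polycomb subunits at -0.114, and in windows with values in 9 libraries Sox genes at -0.298. The arcsine and GC settings gave no log2 ratio. The cause of these shifts was not tested. Depth was unknown, and single windows were the least certain values.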
